A study of Mus musculus with 6 samples.

Results

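The data describe 10 cardiac transcription factors, *Gata4*, *Gata6*, *Nkx2-5*, *Tbx5*, *Tbx20*, *Hand2*, *Mef2a*, *Mef2c*, *Mef2d* and *Srf*, in heart tissue of Pontin cTG and WT mice. They were chosen by gene name from the 56748 genes of the count table, and all 10 were among the 13888 genes with enough counts to be tested. Pontin (*Ruvbl1*) is an AAA+ ATPase of chromatin remodelling complexes. Pontin cTG mice expressed human Pontin with a flag tag from the cardiomyocyte promoter αMHC, and the WT mice were their non-transgenic littermates. All were male, 10 weeks old at the start of treatment and on a C57Bl/6 background. Each of the 6 mice, 3 per genotype, received angiotensin II (Ang-II) from a mini-osmotic pump over 14 days, at 1.5 mg/kg BW/day. No hearts without Ang-II were analysed here, so each comparison is between genotypes under Ang-II and not between Ang-II and vehicle.

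GATA zinc finger factors, the homeobox factor Nkx2-5, T-box factors and the basic helix-loop-helix factor Hand2 bind together at many cardiac enhancers, specify the myocardium in the embryo and keep the myocyte programme running in the adult. Mef2 proteins and serum response factor (Srf) are MADS-box factors that bind A/T-rich sites and respond to calcium, kinase and actin signals, and both groups are known, as is Gata4, for driving hypertrophic gene expression when the heart is under load.

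Promoter sequences of the factors are shown because some hold binding motifs of members of the same group. Of the 10 genes, 7 had at least 1 promoter window of 300 bases in RefSeq (GRCm38.p6), 9 windows in all, while *Gata4*, *Gata6* and *Tbx5* had none in the table. Windows were searched on both strands for the CArG box bound by Srf, the MEF2 motif, GATA sites (AGATAA or TGATAA), the NKX2-5 motif (TNAAGTG), the T-box motif (AGGTGT) and E-boxes (CATCTG or CAGCTG). The 3 sequences below run 5′ to 3′ on the gene's strand and end 10 bases past the start of the transcript, with motif matches in capitals.
*Srf*, chr17:46556153-46556412, minus strand, capitals mark the CArG boxes: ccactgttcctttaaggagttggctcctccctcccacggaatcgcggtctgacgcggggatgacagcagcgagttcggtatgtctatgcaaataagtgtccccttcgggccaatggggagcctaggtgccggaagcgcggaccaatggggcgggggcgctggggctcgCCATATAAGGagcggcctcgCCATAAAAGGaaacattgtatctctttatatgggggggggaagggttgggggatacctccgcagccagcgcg
*Mef2a*, chr7:67372849-67373108, minus strand, capitals mark the MEF2 motif: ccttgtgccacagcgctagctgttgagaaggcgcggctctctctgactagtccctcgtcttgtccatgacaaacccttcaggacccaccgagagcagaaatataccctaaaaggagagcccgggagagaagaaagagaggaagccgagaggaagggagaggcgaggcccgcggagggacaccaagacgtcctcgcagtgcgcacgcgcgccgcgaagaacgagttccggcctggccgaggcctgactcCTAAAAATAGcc
*Hand2*, chr8:57320733-57320992, plus strand, capitals mark an E-box and then a pair of GATA sites: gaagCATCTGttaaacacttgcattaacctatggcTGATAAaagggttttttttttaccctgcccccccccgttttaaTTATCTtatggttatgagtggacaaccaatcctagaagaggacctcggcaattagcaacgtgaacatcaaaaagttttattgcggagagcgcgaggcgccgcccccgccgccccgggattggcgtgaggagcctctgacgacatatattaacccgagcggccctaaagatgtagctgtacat
The *Srf* promoter held 2 CArG boxes, at positions -82 to -73 and -62 to -53 relative to the transcript start, whereas 1.63% of all 32851 mouse promoter windows of 300 bases held at least 1. *Mef2a* carried a MEF2 motif across its transcript start, from position -2 to 7, and 3.19% of all windows held one. The *Hand2* window had 2 GATA sites and an E-box, and 18.6% of all windows held at least 1 GATA site and 30.6% at least 1 E-box. *Mef2c* had a T-box motif in 1 of its 3 windows and an E-box in another, and 13.7% of all windows held a T-box motif. The NKX2-5 motif, present in 11.5% of all windows, was found in 0 of the 9 windows. The windows of *Tbx20*, *Nkx2-5* and *Mef2d* matched none of the motifs. A match describes the letters in the window and does not show binding.

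Libraries held 12436822 to 13194038 counts in WT hearts and 14584102 to 16888124 in Pontin cTG hearts. *Ruvbl1*, the mouse gene of Pontin, had 216, 221 and 217 normalised counts in WT and 249.9, 250.02 and 239.95 in Pontin cTG hearts, without overlap and with an exact two-sided permutation p of 0.1. Transcripts of the transgene are human in sequence and may be missed by the mouse gene model, which limits this as a check. Pontin cTG replicate 2 stood apart from the others: on the first principal component, with 47.4% of the variance, it lay at 52.8 and the other 5 between -25.3 and 17.6. The study's methods mention the exclusion of a principal component outlier, without naming the library or the experiment. For this comparison its figure legend gives 3 mice per group, and its statistics section reports no exclusions. All 6 libraries are used here, with values without Pontin cTG replicate 2 beside those that it moves. Summed cardiomyocyte markers ranged from 16747 to 19432 TPM (transcript abundance scaled for gene length and depth) in WT and from 17055 to 20970 TPM in Pontin cTG hearts (20969.6 TPM in replicate 2), and 3 of 7 were higher in Pontin cTG. Macrophage markers summed to 61.7 to 119.9 TPM in WT, the highest in WT replicate 2, and 41.5 to 63.7 TPM in Pontin cTG hearts, with 0 of 5 higher, while lymphocyte markers stayed at or below 1.69 TPM and adipocyte markers at or below 0.61 TPM. Of the 5 atrial markers, *Bmp10* and *Sln* had at most 1 count in any library, *Myl7* at most 6 and *Myl4* 8 to 51. *Nppa*, also an atrial marker, had 416 to 9011 counts. The labels read heart tissue, and which chambers were sampled is not given. In RNA of heart tissue, fewer cells of a type and less RNA per cell cannot be told apart.

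By level per length, *Srf* was the most abundant of the factors, with a mean of 82.0 TPM ± 16.3 (SD, n = 6). It ranked 6 among the 1525 genes that the table assigns to a transcription factor family. *Nkx2-5* followed at 72.0 TPM ± 8.50 and *Gata4* at 68.1 TPM ± 7.69, ranks 8 and 10. *Mef2d* had 52.6 TPM ± 9.54 and was the leading Mef2 gene by this measure. This rests on the deposited gene lengths, 5985 bases for *Mef2d* and 14681 for *Mef2a*. In counts without length scaling, *Mef2a* lay above *Mef2d* in every library. A middle group held *Mef2a* at 27.9 TPM ± 4.19, *Hand2* at 22.6 TPM ± 3.73 and *Tbx20* at 20.3 TPM ± 3.29. *Gata6* at 14.7 TPM ± 3.50, *Mef2c* at 10.5 TPM ± 1.22 and *Tbx5* at 9.35 TPM ± 2.55 were lowest, with *Tbx5* ranking 246.

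Not every neighbour in this order was separated in every heart. *Gata4* lay above *Mef2d* in 6 of 6 libraries, *Mef2d* above *Mef2a* in 6, *Tbx20* above *Gata6* in 6 and *Gata6* above *Mef2c* in 6. *Srf* lay above *Nkx2-5* in 5 of 6. *Nkx2-5* exceeded *Gata4* in 4 libraries, *Mef2a* exceeded *Hand2* in 4, *Hand2* exceeded *Tbx20* in 4 and *Mef2c* exceeded *Tbx5* in 4, so these pairs changed places between hearts.

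**Figure D1:**
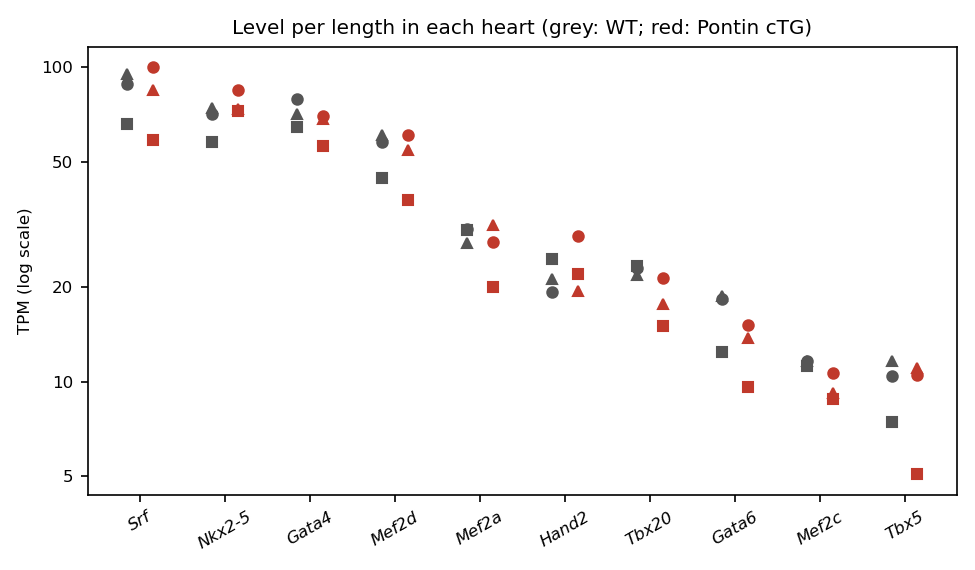
Level of each factor per length (TPM, log scale, vertical axis) in the 3 WT (grey) and 3 Pontin cTG (red) hearts, with circle, square and triangle for replicates 1, 2 and 3. *Srf*, *Nkx2-5* and *Gata4* lead with means of 82.0, 72.0 and 68.1 TPM, *Tbx5* is lowest at 9.35 TPM, and the red square (Pontin cTG replicate 2) lies lowest of all 6 hearts for 8 of the 10 factors.

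The main comparison asked which factors differed between Pontin cTG and WT hearts under Ang-II. None of the 10 passed an adjusted p of 0.05 in the edgeR quasi-likelihood test with p-values adjusted by Benjamini-Hochberg, 0 of 10 with an adjusted p of 0.999 for each, against 0% of all tested genes, and 0 of 10 reached p under 0.05 before adjustment, whether by edgeR or DESeq2. Over all tested genes, 1.02% were higher and 1.03% lower in Pontin cTG by edgeR with p under 0.05 before adjustment, and DESeq2 gave 1 gene past its adjusted threshold. Fold changes were negative for 8 factors and positive for *Nkx2-5* and *Hand2*, with a median log2 fold change of -0.15 against 0.0013 for all tested genes. *Tbx20* and *Mef2c* were the factors whose groups did not overlap, 2 of 10, both lower in Pontin cTG, against 3.63% of all tested genes lower and 4.7% higher without overlap. With 3 mice against 3, the exact two-sided permutation test cannot give a p under 0.1. Raw counts of the factors in single libraries ran from 173 for *Tbx5* to 3681 for *Mef2a*, and the common biological coefficient of variation between mice was 0.197.

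*Gata4* and *Gata6* encode the zinc finger factors of the adult myocardium, which act in part redundantly. *Gata4* had 2090.1, 1598 and 1815 normalised counts in the WT hearts (replicates 1, 2 and 3, an order kept throughout) and 1747, 1361 and 1841 in Pontin cTG. The groups overlapped, and both libraries numbered 2 were the lowest of their genotype. Means were 1835 ± 246 in WT and 1649.6 ± 254 in Pontin cTG (SD, n = 3 each), and the log2 fold change was -0.15 (SE 0.17, 95% interval -0.53 to 0.22; exact permutation p 0.5). *Gata6* had 806, 514 and 800.4 normalised counts in WT and 629, 391 and 619 in Pontin cTG, so that replicates 1 and 3 of Pontin cTG lay between WT replicate 2 and the other WT hearts. Its log2 fold change of -0.37 (SE 0.23, 95% interval -0.89 to 0.15; exact permutation p 0.3) was the most negative of the group. It came to -0.18 without Pontin cTG replicate 2 and to -0.56 without WT replicate 2, and that of *Gata4* to -0.032 and -0.24. The share of *Gata4* in the summed TPM of both genes was 81.4% ± 2.38 in WT and 83.6% ± 1.56 in Pontin cTG (SD, n = 3 each), with an exact permutation p of 0.3, or 0.8 after Benjamini-Hochberg adjustment over the 5 shares compared.

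*Nkx2-5* encodes the homeobox factor that partners Gata4 and Tbx5. It had 822, 632 and 834 normalised counts in WT and 926, 775 and 871 in Pontin cTG. Replicates 1 and 3 of Pontin cTG exceeded every WT heart and replicate 2 lay between WT values. The means of 762 ± 113 and 857 ± 76.2 (SD, n = 3 each) gave a log2 fold change of 0.17 (SE 0.15, 95% interval -0.17 to 0.51; exact permutation p 0.4), or 0.049 without WT replicate 2. *Hand2* encodes a basic helix-loop-helix factor of the right ventricle and outflow tract. Its normalised counts were 306, 367 and 328 in WT and 437, 322 and 315 in Pontin cTG. Pontin cTG replicate 1 exceeded the WT range and the other two lay within it, and the log2 fold change was 0.10 (SE 0.16, 95% interval -0.27 to 0.47; exact permutation p 0.7). It became -0.058 without that heart. In GENCODE M21, 19.6% of the exonic bases of *Hand2* are shared with the antisense gene *Hand2os1*, and whether counting used strand is not given in the sources used here.

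Of the T-box pair, *Tbx20* had groups without overlap and *Tbx5* did not. *Tbx20*, which encodes a repressor and activator needed to keep adult cardiomyocytes functional, had 1860.0, 1781 and 1717 normalised counts in WT and 1641, 1128 and 1460.5 in Pontin cTG. Every Pontin cTG heart lay below every WT heart. The means were 1786 ± 71.6 and 1409.8 ± 261 (SD, n = 3 each), and the log2 fold change was -0.34 (SE 0.16, 95% interval -0.70 to 0.022; exact permutation p 0.1, the smallest the design allows). Its unadjusted p of 0.0623 in edgeR's quasi-likelihood test was the smallest of the 10 factors. Leaving out Pontin cTG replicate 2 gave -0.20. *Tbx5*, which encodes an activator of atrial and conduction genes and is mutated in Holt-Oram syndrome, had 329, 221 and 357 normalised counts in WT and 314, 148 and 357 in Pontin cTG. The groups overlapped, with replicate 2 the lowest of each. Its log2 fold change was -0.15 (SE 0.31, 95% interval -0.85 to 0.55; exact permutation p 0.7), the widest interval of the 10 factors, and it turned to 0.15 without Pontin cTG replicate 2. *Tbx5* made up 30.1% ± 5.41 of the summed TPM of both T-box genes in WT and 32.2% ± 6.69 in Pontin cTG (SD, n = 3 each; exact permutation p 0.7).

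Mef2 proteins are MADS-box factors held in check by class IIa histone deacetylases. *Mef2c* had 1236, 1121 and 1198 normalised counts in WT and 1067, 867 and 1003 in Pontin cTG, all below the lowest WT heart. The means of 1185 ± 58.7 and 979 ± 102 (SD, n = 3 each) gave a log2 fold change of -0.28 (SE 0.13, 95% interval -0.57 to 0.022; exact permutation p 0.1), the narrowest interval of the group. Without Pontin cTG replicate 2 it was -0.19. *Mef2a*, which encodes the main adult cardiac Mef2 protein, had 3028, 2834 and 2656 normalised counts in WT and 2611, 1829.8 and 3189 in Pontin cTG. The Pontin cTG hearts spanned the WT range on both sides, and the log2 fold change of -0.16 (SE 0.20, 95% interval -0.61 to 0.30; exact permutation p 0.6) became 0.031 without replicate 2. *Mef2d*, whose product is known as a driver of stress-dependent remodelling, had 2336, 1693 and 2388 normalised counts in WT and 2325, 1405 and 2251 in Pontin cTG. The order of the 3 replicates was similar in both genotypes, with number 2 lowest. Its log2 fold change was -0.10 (SE 0.22, 95% interval -0.60 to 0.40; exact permutation p 0.5), and 0.097 without Pontin cTG replicate 2. In summed TPM, *Mef2d* made up 56.8% ± 4.64, *Mef2a* 31.1% ± 3.88 and *Mef2c* 12.1% ± 0.808 of the family in WT, and 58.4% ± 2.51, 30.4% ± 2.52 and 11.2% ± 1.85 in Pontin cTG (SD, n = 3 each; exact permutation p 0.8, 0.8 and 0.5).

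*Srf*, whose protein controls immediate early genes and the genes of sarcomeric and smooth muscle actin, had 1731, 1216 and 1804 normalised counts in WT and 1841, 1057 and 1687 in Pontin cTG. Replicate 2 was the lowest in both genotypes and the other 4 hearts lay within a narrow band. The means were 1584 ± 321 and 1529 ± 415 (SD, n = 3 each), with a log2 fold change of -0.051 (SE 0.23, 95% interval -0.58 to 0.47; exact permutation p 0.7). It was 0.16 without Pontin cTG replicate 2. *Srf*, whose promoter held 2 CArG boxes, had the smallest absolute log2 fold change of the 10, and a link between them was not tested.

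**Figure D2:**
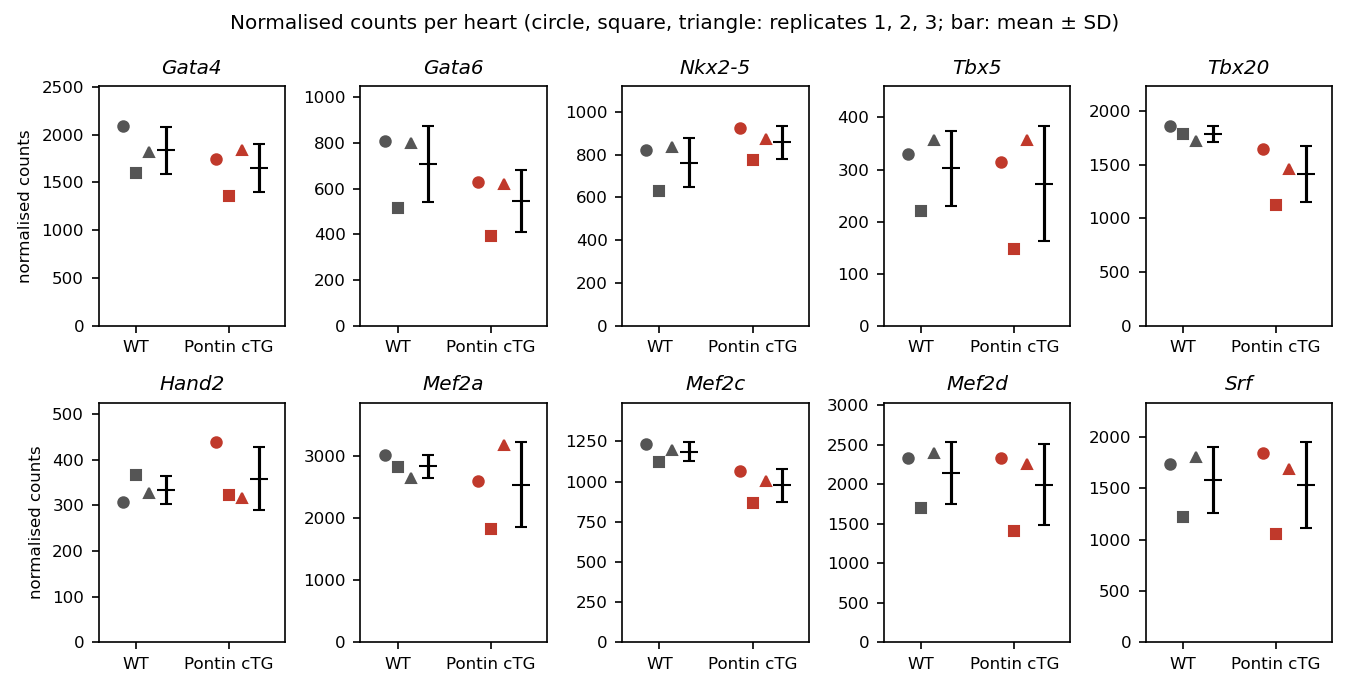
Normalised counts (vertical axes, from 0) of the 10 factors in WT (grey) and Pontin cTG (red) hearts, with circle, square and triangle for replicates 1, 2 and 3 and black bars for the mean ± SD (n = 3). *Tbx20* and *Mef2c* show 3 Pontin cTG points below all WT points, and in the other 8 panels the groups overlap.

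**Figure D3:**
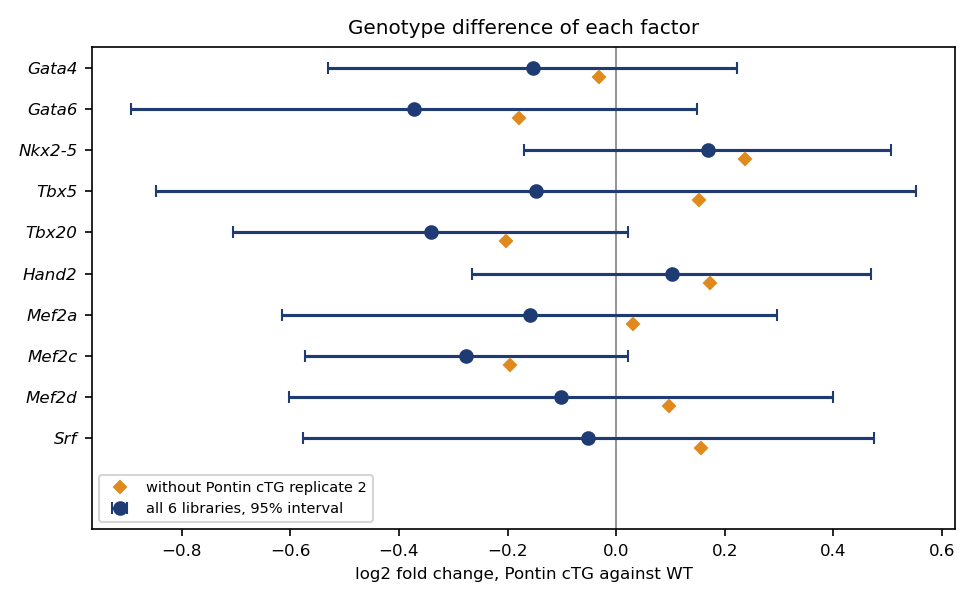
Log2 fold change of each factor, Pontin cTG against WT (horizontal axis), with 95% intervals from edgeR for all 6 libraries (blue) and the value without Pontin cTG replicate 2 (orange, no interval drawn). All 10 intervals cross 0, from -0.37 for *Gata6* to 0.17 for *Nkx2-5*, and *Tbx5*, *Mef2a*, *Mef2d* and *Srf* move from below to above 0 without that heart.

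In fold terms, the 95% intervals reached down to 0.539-fold for *Gata6* and 0.556-fold for *Tbx5* and up to 1.47-fold for *Tbx5* and 1.42-fold for *Nkx2-5*. The upper bounds of *Tbx20* and *Mef2c* were both 1.02-fold. A p that misses the threshold does not show that the levels are alike, and these intervals bound what the 6 hearts allow.

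One heart had low values for most of the factors. Pontin cTG replicate 2 had the lowest log2 CPM (depth-scaled count) of all 6 libraries for 8 of the 10 factors, the exceptions being *Nkx2-5*, lowest in WT replicate 2, and *Hand2*, lowest in WT replicate 1. All 10 factors were below the mean of the other 5 libraries in that heart, by a median log2 difference of -0.61, compared with -0.074 for the 920 tested genes of transcription factor families and 0.017 for all tested genes. Some related lists were also low in this heart, with medians of -0.29 for core factor targets (11 of 17 below), -0.25 for MEF2 targets (8 of 11) and -0.25 for cofactors (12 of 16). The median of the other cardiac factors was -0.048 (8 of 13 below) and that of SRF targets 0.12 (6 of 12). Below in this heart were 48.5% of all tested genes and 54.7% of the tested transcription factor genes. Single genes of these lists lay as low as or below most of the factors, such as *Chrm2* at -1.39, *Prox1* at -1.30 and *Ryr2* at -0.97. Of the 10 factors, *Tbx5* lay furthest below, at -1.07, and 2.33% of tested genes lay further below. *Gata6* was at -0.76 (6.29% further below) and *Mef2a*, *Mef2d* and *Srf* between -0.64 and -0.63. *Nkx2-5* was at -0.064 and *Hand2* at -0.11, close to the other hearts. In that same library *Nppa*, the atrial natriuretic peptide gene, was at 2.93 relative to the other hearts and *Myocd*, the coactivator of Srf, at -1.36 (these and the single genes above, but for *Ryr2*, were picked after their values were seen). Markers of other cell types moved in it too: endothelial markers (5 genes) summed to 419.8 TPM against 263 to 331 TPM in the other 5 hearts, and fibroblast markers (6 genes) to 479 TPM against 275 to 447 TPM. The part of these markers in the low values of the factors was not tested. Without Pontin cTG replicate 2, the median log2 fold change of the 10 factors was 0.064 in place of -0.15, and 4 were negative in place of 8.

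WT replicate 2 showed a like pattern among WT hearts for part of the group. It was the lowest WT heart for 7 of the 10 factors, with log2 differences from the mean of the other WT hearts of -0.64 for *Gata6*, -0.63 for *Tbx5*, -0.54 for *Srf* and -0.48 for *Mef2d*. The same heart had the highest macrophage sum, 119.9 TPM against 41.5 to 63.7 TPM in the other 5 hearts, and the highest fibroblast sum of the WT hearts, 447 TPM against 277 and 324 TPM, and their part in its values was not tested. *Tbx20*, *Mef2a* and *Hand2* were the factors for which another WT heart was lowest, and *Hand2* lay at 0.21 there. With both libraries numbered 2 left out, a choice made after the values were seen, the median log2 fold change of the factors was -0.036. *Gata6* then had an unadjusted edgeR p of 0.00588 and *Mef2c* of 0.0465, both lower in Pontin cTG, with an adjusted p of 0.9996 each in the edgeR quasi-likelihood test (Benjamini-Hochberg adjusted). The median deviation of the 10 factors from their means over all libraries was, for replicates 1, 2 and 3, 0.20, -0.18 and 0.14 among WT hearts and 0.13, -0.50 and 0.10 among Pontin cTG hearts. Whether the way these hearts were sampled, or the quality of their RNA, had a part in these values was not tested. Deviations across genes correlated with gene length by Spearman coefficients of 0.11 to 0.18 in WT and of 0.082, -0.20 and -0.16 in Pontin cTG replicates 1, 2 and 3, a description over genes that share a library, and its part in the values was not tested.

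**Figure D4:**
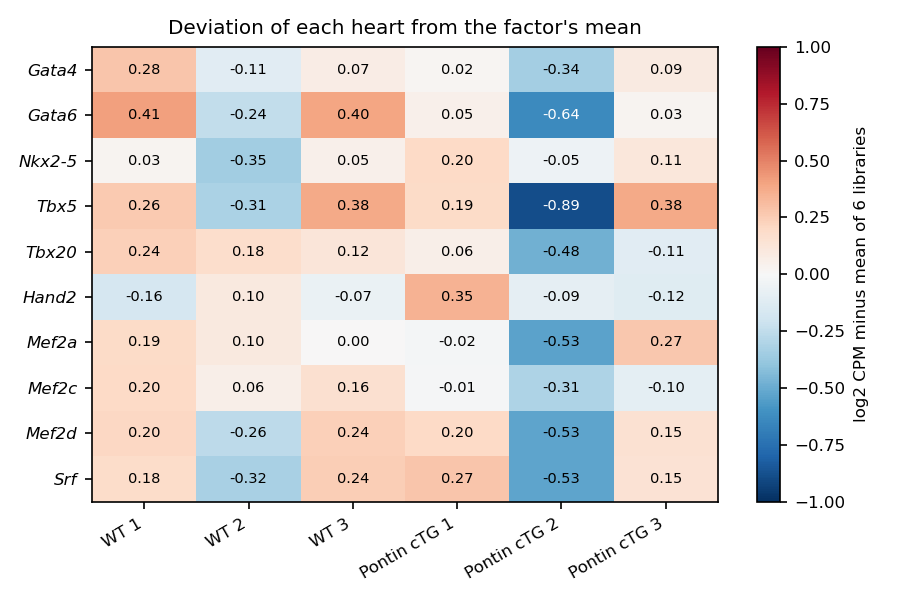
Log2 CPM of each factor in each heart minus the factor's mean over the 6 libraries (colour and printed value, blue below and red above). The column of Pontin cTG replicate 2 is negative for all 10 factors, down to -0.89 for *Tbx5*, and WT replicate 2 is negative for *Gata4*, *Gata6*, *Nkx2-5*, *Tbx5*, *Mef2d* and *Srf*.

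Mice of one genotype varied more in Pontin cTG than in WT for 9 of the 10 factors, *Nkx2-5* being the exception, and the same held for 69.7% of all tested genes. The median SD of log2 CPM of the factors was 0.21 in WT and 0.33 in Pontin cTG, and 0.17 and 0.27 over all tested genes. These SDs include Pontin cTG replicate 2, the lowest Pontin cTG heart for 9 of the 10 factors. The spread without that heart was not computed, so a larger spread is not shown to be a trait of the genotype. *Tbx5* varied most, with an SD of 0.37 in WT and 0.68 in Pontin cTG. *Tbx20* and *Mef2c* were tight in WT, with SDs of 0.058 and 0.072.

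The factors were also set against cardiomyocyte markers. The log2 ratio of *Tbx20* to the mean of the markers was lower by a log2 difference of -0.36 in Pontin cTG, again without overlap between the groups (exact permutation p 0.1). The difference was -0.38 for *Gata6* (exact permutation p 0.5), -0.28 for *Mef2c* (0.2) and 0.17 for *Nkx2-5* (0.5). The differences of *Gata4*, *Tbx5*, *Mef2a*, *Mef2d* and *Srf* lay between -0.22 and -0.074, and that of *Hand2* was 0.085.

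The wider set of transcription factor genes gives the background for the direction of the 10. Among the 920 tested genes with a transcription factor family, 526 (57.2%) were lower and 394 higher in Pontin cTG, with a median log2 fold change of -0.035. Of the 10 factors, 8 were lower, and *Tbx20* and *Mef2c* were among the 39 of 920 genes that were lower without overlap. Other cardiac factors, 13 of 18 tested, had 4 higher and 9 lower, a median of -0.083, and 0 passing in either direction. *Tbx3*, a repressor of the working myocardial programme in the conduction system, had a log2 fold change of 0.30 (SE 0.18) and *Prdm16*, a regulator of compact myocardium, of 0.23 (SE 0.18). *Hey2*, a Notch effector, was at -0.41 (SE 0.28) and *Irx3*, a factor of the conduction system, at -0.26 (SE 0.17). *Hand1* and *Isl1*, both of early heart fields, had 0 counts.

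Cofactors of the 10 factors numbered 16, all tested, with 5 higher, 11 lower and a median of -0.055. None passed, and 0 of 16 did at an unadjusted p under 0.05 in edgeR. The 4 class IIa histone deacetylases, which repress Mef2, went both ways. *Hdac5* and *Hdac7* had log2 fold changes of 0.17 (SE 0.15) and 0.22 (SE 0.23), and *Hdac4* and *Hdac9*, outside the rule for named genes, of -0.19 (SE 0.19) and -0.14 (SE 0.17). *Hdac7* had 911 normalised counts in Pontin cTG replicate 2 against 478 to 575 in the other 5 hearts. *Ep300*, an acetyltransferase that works with Gata4 and Mef2, was at -0.42 (SE 0.20), or -0.24 without Pontin cTG replicate 2 and -0.65 without replicate 1, and *Mrtfb*, an actin-regulated coactivator of Srf, at -0.28 (SE 0.14). *Myocd*, outside the rule for named genes, was at -0.44 (SE 0.32), with 350.2 normalised counts in Pontin cTG replicate 2 and 707 to 1089 in the others.

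Genes known as targets of the core factors were the sarcomere, calcium handling and natriuretic peptide genes. Of 18, 17 were tested, 7 were higher and 10 lower with a median of -0.13, and 0 passed an adjusted p of 0.05. *Slc8a1*, the sodium-calcium exchanger, was the single gene with an unadjusted p under 0.05 (5.88% of the 17, against 2.05% of all tested genes). Its log2 fold change was -0.44 (SE 0.17, unadjusted edgeR p 0.033), with 6709.8, 7308 and 5722 normalised counts in WT and 5119.9, 3910.4 and 5518 in Pontin cTG. *Tnni3*, cardiac troponin I, was at 0.30 (SE 0.14) and *Myl2*, the ventricular regulatory light chain, at 0.24 (SE 0.12), both without overlap between the groups. Of the 17 targets, 2 were higher and 2 lower without overlap, 23.5% against 8.33% of all tested genes. The lower ones were *Slc8a1* and *Actc1*, the latter outside the rule for named genes and at -0.11 (SE 0.11). *Ryr2*, the sarcoplasmic calcium release channel, was at -0.34 (SE 0.26), and at -0.093 without Pontin cTG replicate 2. *Nppa*, also outside the rule, ranged from 858 to 1842 normalised counts in WT and from 360.4 to 7716 in Pontin cTG.

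MEF2 targets, 11 tested, had 5 higher and 6 lower with a median of -0.013, and 0 had an unadjusted p under 0.05. *Mb*, myoglobin, was at 0.17 (SE 0.13), *Pgam2*, a muscle glycolytic enzyme, at 0.19 (SE 0.19), *Xirp1*, an intercalated disc protein, at -0.36 (SE 0.21) and *Ppargc1a*, a coactivator of mitochondrial genes, at -0.26 (SE 0.21). Leaving out Pontin cTG replicate 2 put *Xirp1* at -0.18, *Ppargc1a* at -0.035 and *Pgam2* at 0.057. Among the SRF targets, 12 of 14 tested, 6 were higher and 6 lower with a median of -0.0071. Those with an unadjusted p under 0.05 were 2 immediate early genes, 16.7% of those tested against 2.05% of all tested genes. Other immediate early genes of the list, outside the rule for named genes, were *Egr2* at 0.53 (SE 0.72) and *Ccn1* at -0.023 (SE 0.18). *Fosb* had too few counts to be tested. *Egr1* had 218, 229 and 221 normalised counts in WT and 464, 259 and 478 in Pontin cTG, every Pontin cTG heart above every WT heart, at a log2 fold change of 0.85 (SE 0.22, unadjusted edgeR p 0.00427). *Fos* had 16.5, 39.3 and 29.1 in WT and 69.3, 36.8 and 60.6 in Pontin cTG, with a log2 fold change of 0.97 (SE 0.38, unadjusted edgeR p 0.0305). Both had an adjusted p of 0.999 in the edgeR quasi-likelihood test (Benjamini-Hochberg adjusted), and *Egr1* passed in the alternatives given in the closing section. *Vcl*, the cytoskeletal linker vinculin, was at -0.44 (SE 0.21), or -0.24 without Pontin cTG replicate 2. *Actg2*, a smooth muscle actin, was at -0.46 (SE 0.41) on 9.53 to 26.8 normalised counts, or -0.75 without that heart and -0.20 without Pontin cTG replicate 3. Other actin genes of the list, outside the rule for named genes, were at 0.15 (*Acta1*), 0.018 (*Acta2*) and 0.0083 (*Actb*).

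**Figure D5:**
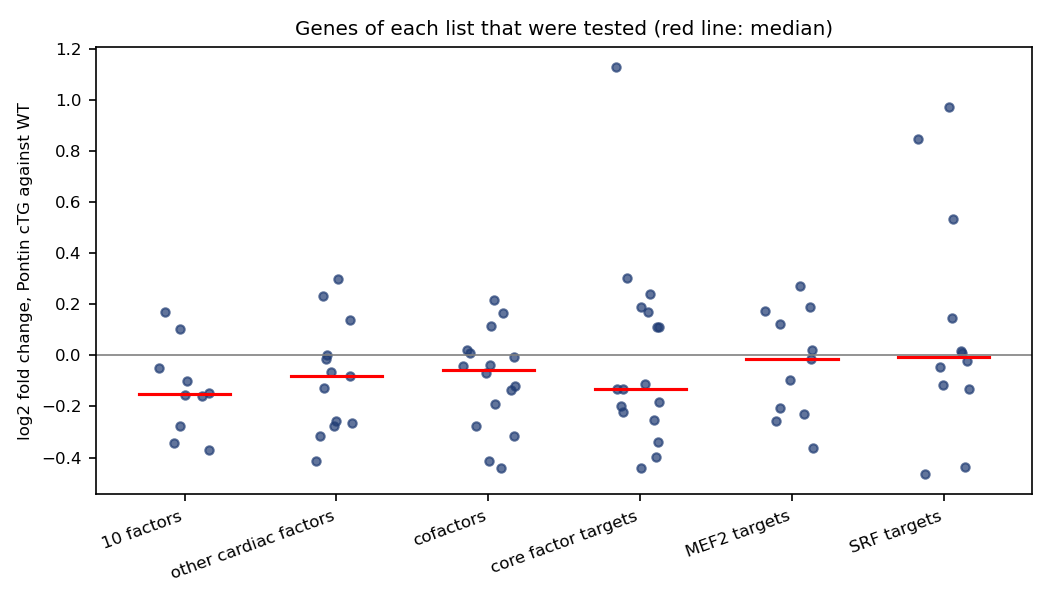
Log2 fold change, Pontin cTG against WT (vertical axis), of each tested gene (points) in the 10 factors and 5 related gene lists, with list medians as red lines. The median of the 10 factors is -0.15, that of core factor targets -0.13, and those of MEF2 and SRF targets lie at -0.013 and -0.0071. The highest points are *Nppa* among the core factor targets and *Fos* and *Egr1* among the SRF targets.

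In GENCODE M21 (GRCm38), *Mef2c* spans chr13:83504034-83667080 and *Tbx20* chr9:24718138-24774303. *Gata4* lies at chr14:63198922-63271692, and *Nkx2-5* at chr17:26838664-26845009 on the same chromosome as *Srf*, at chr17:46548329-46556175. *Tbx5* is at chr5:119832668-119885219, *Mef2a* at chr7:67231163-67372858, *Mef2d* at chr3:88142372-88172086 and *Hand2* at chr8:57320983-57324633. Exonic overlap with an antisense gene came to 8.87% of the bases of *Mef2d*, 2.06% of *Mef2a* and 1.43% of *Gata6*, and was 0 for *Tbx20*, *Mef2c*, *Gata4*, *Nkx2-5*, *Tbx5* and *Srf*. Reads from such stretches cannot be told apart without strand.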

How the data were processed

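RNA of heart tissue from 3 WT and 3 Pontin cTG mice was sequenced. The authors deposited raw counts per gene, whole numbers without normalisation, in one table for all libraries. The paper's methods name Trimmomatic, STAR, mm10 and Gencode M25, whereas the submitters' processing notes name fastp, HISAT2, featureCounts, DESeq2 and GRCm39 (mm39), so the aligner and build behind the counts are uncertain. Gene coordinates given here are from GENCODE M21 (GRCm38).

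After filterByExpr (at least 10 counts) and TMM scaling, genes were tested with edgeR 4.0.16 (quasi-likelihood, genotype as the only term, R 4.3.3), with Benjamini-Hochberg adjustment over 13888 genes. Intervals are 95% intervals of that fit, and normalised counts are counts scaled to the TMM library sizes. TPM used the gene lengths of the deposited table. Exact two-sided permutation tests of normalised counts, shares and ratios enumerated all splits of 3 against 3. The tests were checked on simulated counts with larger changes than those of the factors and without an outlying library. That check therefore covers neither differences of this size nor a library such as Pontin cTG replicate 2. Alternatives were DESeq2 1.42.0, limma-voom (limma 3.58.1) with sample weights, other scalings and filters, a replicate block and each library left out.

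The 10 factors and the lists were chosen with earlier results of these data known. Named were the factors, *Ruvbl1* and, per other list, the 2 higher and 2 lower genes with the smallest unadjusted p. Lists are general knowledge of cardiac biology, and counts by direction are descriptions. Same-numbered libraries deviated together with correlations of 0.063, 0.43 and 0.18. The WT mice were littermates of Pontin cTG mice, but no source says which hearts shared a litter or names a batch. Libraries were therefore treated as unpaired, and a litter effect cannot be told apart. Counts of every library pair differed by more than sampling noise (chi-square per gene of at least 5.55). The labels call the libraries biological replicates, 1 mouse each.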

Additional observations from a re-analysis of the deposited data

How the results depend on the processing

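The number of the 10 factors past an adjusted p of 0.05 was 0 in each of the 16 alternatives. *Gata4*, *Gata6*, *Nkx2-5*, *Tbx20* and *Mef2c* kept their sign in all 16, though leaving out 1 library moved them from -0.24 to -0.032, -0.56 to -0.18, 0.049 to 0.25, -0.46 to -0.20 and -0.33 to -0.19. Likewise leaving out 1 library at a time, the log2 fold change ran from -0.39 to 0.15 for *Tbx5*, -0.058 to 0.19 for *Hand2*, -0.35 to 0.031 for *Mef2a*, -0.25 to 0.097 for *Mef2d* and -0.21 to 0.16 for *Srf*, and the median of the 10 from -0.27 to 0.064. The sign turned without Pontin cTG replicate 2 for all of these but *Hand2* (without replicate 1), and for *Srf* also without WT replicate 1 or 3 (0.020 and 0.060). With limma-voom sample weights, *Srf* was at 0.037, *Hdac7* at -0.076 and the median of the other cardiac factors at -0.23, and that median ran from -0.21 to 0.064 over the left-out libraries, the upper end without Pontin cTG replicate 1. Leaving out Pontin cTG replicate 2 or 3 put *Hdac7* at -0.13 or 0.39. With both libraries numbered 2 left out, chosen after the values were seen, *Mef2a* was at 0.031, *Hdac7* at -0.17, *Pgam2* at -0.070 and *Ppargc1a* at 0.0084. *Egr1* passed with voom weights (1.03, adjusted p 0.0137), without Pontin cTG replicate 2 (1.08, 0.0133) and with both libraries numbered 2 left out (1.10, 0.00767).

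Over left-out libraries the difference in share ran from -0.97 to 5.70 percentage points for *Tbx5*, -2.53 to 1.33 for *Mef2a* and -0.93 to 3.62 for *Mef2d*. The log2 difference relative to cardiomyocyte markers ran from -0.28 to 0.24 for *Srf*, -0.060 to 0.22 for *Hand2*, -0.32 to 0.042 for *Gata4*, -0.54 to 0.24 for *Tbx5*, -0.46 to 0.091 for *Mef2a* and -0.31 to 0.18 for *Mef2d*. The causes were not tested beyond the library left out.

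Under a replicate block, genes at an unadjusted p under 0.05 numbered 499 in place of 285, among them *Gata6* (-0.37, p 0.014) and *Tbx20* (-0.36, p 0.0355), with 0 past an adjusted p. Pairing is not given by the labels. Genes past an adjusted p numbered 3 with voom weights, without a count filter or without Pontin cTG replicate 2, 6 without both libraries numbered 2, 1 in DESeq2 and 0 in the other alternatives. With voom weights 794, without a filter 478 and without Pontin cTG replicate 1 or 2 636 and 686 genes had an unadjusted p under 0.05, and 122 and 186 without WT replicate 1 or 2.

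With 3 mice per genotype, the widest interval of a factor ran from -0.85 to 0.55 on the log2 scale (*Tbx5*), and none had one narrower than that of *Mef2c*. Hearts without Ang-II, protein levels and cell types were not measured here.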
